A study of Mus musculus with 23 samples.

Results

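Nucleoporins and nuclear transport receptors were followed from the mouse zygote to the 2-cell embryo. A nuclear pore is built from nucleoporins, which form ring-shaped scaffolds, a central channel and filaments on both faces of the nuclear envelope. Importins and exportins carry cargo through the channel, and the small GTPase Ran sets the direction of transport. In the classical import route an importin α binds the nuclear localisation signal of the cargo, and importin β (Kpnb1) takes the pair through the pore. Oocytes store mRNAs that are used after fertilisation, and the embryo replaces maternal with its own transcripts after genome activation, which in mice reaches its main wave at the 2-cell stage.

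The members were the genes whose symbol began with Nup and a digit, Kpna, Kpnb, Ipo and a digit, Xpo with a digit or t, or Tnpo and a digit, which gave 45 of 22619 named genes. They comprised 6 genes of the Y complex (the outer scaffold of the pore), 5 of the inner ring, 3 of the central channel, 2 of the cytoplasmic face, 2 of the nuclear basket and 1 membrane nucleoporin. The receptors were 6 importins α, 11 import receptors of the importin β family and 6 export receptors. The 3 others were Nup62cl, Nup210l and the readthrough gene Nup62-il4i1. RNA-seq had been performed on 23 libraries in 8 groups, with 3 libraries per group except 2-cell siEtv5 with 2. B6D2F1 (C57BL/6xDBA/2) oocytes at the germinal vesicle stage had been injected with siRNA against Rfx1, Mlx or Etv5, or with control siRNA (siCtrl), were matured in vitro and then fertilised, and embryos were harvested as late zygotes (14 h after fertilisation in the labels) or at the 2-cell stage (36 h). The study's methods give later hours for both stages and fertilisation by sperm injection (ICSI), where the labels give incubation with sperm. The study designed several siRNAs per target, and injection and in vitro maturation were common to every group. The study states that RNA-seq was repeated for each group, but whether the repeats used separate collections of embryos is not given in the sources used here, so each p-value reflects library-to-library spread, which may be technical. In these whole-embryo libraries, fewer cells of a type and less RNA per cell cannot be told apart. Values are relative to all RNA captured by oligo-dT priming in a library, and RNA not captured was not measured.

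Aligned depth, recovered from coverage per FPKM, was 404 to 991 megabases in 20 libraries, but 119 to 174 megabases in the 3 libraries of 2-cell siRfx1. Pairs of 2-cell siRfx1 libraries also correlated less (r = 0.676 to 0.713 across 10651 genes, on the log2 scale) than replicate pairs of the other groups (0.859 to 0.968, across 10651 genes in 2-cell and 8886 in zygote groups). The siRNA targets were lower in the treated zygotes: Mlx was at 1.84 to 4.25 FPKM in siCtrl and 0 to 0.469 in siMlx, Rfx1 at 3.05 to 3.52 and 0.149 to 0.481, and Etv5 at 0.680 to 2.01 and 0 to 0.0792. In 2-cell embryos Etv5 went from 43.7 to 49.3 in siCtrl to 5.55 and 8.98 in siEtv5, and Rfx1 from 8.12 to 10.7 to 1.43 to 1.53. Mlx, however, was listed at 0.836, 2.26 and 4.05 FPKM in the 3 libraries labelled 2-cell siMlx, against 2.42 to 4.42 in siCtrl, so these groups overlapped. The targets also differed outside the group aimed at: in 2-cell siRfx1 Etv5 was at 9.19, 6.73 and 12.6 FPKM and Mlx at 21.5, 0 and 0, and Rfx1 was at 1.85 to 2.88 in 2-cell siMlx, 4.39 and 4.94 in 2-cell siEtv5 and 0.863 to 1.33 in siMlx zygotes. Markers of the 2-cell stage summed to 26.0 to 57.3 FPKM in siCtrl zygotes and 608 to 866 in siCtrl 2-cell embryos. In each of these groups 9 of 12 were at 1 FPKM or more in a library, and Tcstv1, Tcstv3 and Gm4340 were at 0. The same sum was 1252 and 1411 in the 2-cell siEtv5 libraries, 96.6 to 383 in siMlx and 236 to 371 in siRfx1. Oocyte and early embryo markers summed to 2936 to 4415 FPKM in siCtrl 2-cell embryos, 6105 and 6306 in siEtv5, 2370 to 4884 in siMlx and 2727 to 3322 in siRfx1. Of 12 cumulus and granulosa genes, Amh, Foxl2, Inha, Inhba, Ptx3 and Cyp11a1 were at 0 in all siCtrl libraries. The list summed to 6.13 to 9.10 FPKM in siCtrl zygotes and 45.1 to 78.7 in siCtrl 2-cell embryos, of which Amhr2 held 28.3 to 66.1. The part of these genes in the differences below was not tested.

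The sequences upstream of 4 importin α genes are shown because these genes moved in opposite directions between the stages within 1 family. They are the bases from -250 to -51 before the annotated start site in mm9, written 5′ to 3′ on the strand of the gene, with CpG dinucleotides in capitals. Kpna7 lies at chr5:145770556-145770755 (minus strand), Kpna3 at chr14:62058835-62059034 (minus), Kpna1 at chr16:35983199-35983398 (plus) and Kpna4 at chr3:68931065-68931264 (minus). The first pair fell from the zygote to the 2-cell stage and the second pair rose.
Kpna7: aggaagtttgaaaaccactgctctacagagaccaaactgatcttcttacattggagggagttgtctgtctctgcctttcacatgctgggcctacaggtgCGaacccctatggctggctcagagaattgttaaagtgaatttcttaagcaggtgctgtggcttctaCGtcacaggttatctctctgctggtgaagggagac
Kpna3: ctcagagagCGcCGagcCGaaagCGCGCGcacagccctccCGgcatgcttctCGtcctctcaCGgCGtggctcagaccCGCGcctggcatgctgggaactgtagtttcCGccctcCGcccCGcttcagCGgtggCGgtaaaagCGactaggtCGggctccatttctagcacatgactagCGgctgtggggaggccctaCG
Kpna1: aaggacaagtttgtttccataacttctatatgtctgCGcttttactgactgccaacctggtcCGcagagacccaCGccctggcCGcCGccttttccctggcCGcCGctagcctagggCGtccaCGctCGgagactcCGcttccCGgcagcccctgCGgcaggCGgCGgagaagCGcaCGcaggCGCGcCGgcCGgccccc
Kpna4: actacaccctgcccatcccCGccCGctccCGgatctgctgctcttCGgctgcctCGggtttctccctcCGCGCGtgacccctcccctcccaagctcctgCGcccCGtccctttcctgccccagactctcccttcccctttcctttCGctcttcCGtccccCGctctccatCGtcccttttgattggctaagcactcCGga
Kpna7 stood apart with 2 CpG in this window, against 21 upstream of Kpna3, 21 upstream of Kpna1 and 15 upstream of Kpna4. Over the full 250 bases the counts were 3, 25, 29 and 24, and the median was 24 for the 45 members and 10 for 22560 windows of all genes. CpG-rich windows lay before Kpna3, which fell, as well as before Kpna1 and Kpna4, which rose. In the Kpna1 window, 118 bases overlapped an exon of Gm15564 on the opposite strand.

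Short motifs were counted on both strands of the 250 bases before each member. An E-box (CACGTG), the letters bound by basic helix-loop-helix factors such as Mlx with its partners, was found before 5 of 45 members (11.1%), against 6.6% of all windows. The ETS letters CCGGAAGT stood before 5 members (11.1% against 3.9%), and the X-box core letters GTTGCC, from the motif of RFX factors, before 6 (13.3% against 9.6%). A CCAAT box was present before 20 members (44.4% against 35.2%) and the TATA letters TATAAA before 3 (6.7% against 12%). None of these motifs contains another, and each was counted separately. Such matches only describe the letters in these windows.

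Comparison of siCtrl zygotes and siCtrl 2-cell embryos showed which members changed with development when no factor was targeted. The importin α genes were exchanged: Kpna7 and Kpna3 fell, Kpna1 and Kpna4 rose, and Kpna2 was the highest at both stages. Of the import receptors, Ipo8 and Tnpo1 fell while Tnpo3, Ipo5, Ipo4, Ipo7, Ipo11 and Tnpo2 rose. Both members of the cytoplasmic face fell, and among the 6 Y complex members Nup37 fell while Nup43, Nup133 and Nup85 rose. By limma on log2(FPKM + 1), with libraries rescaled and genes below a mean of 1 FPKM left out, 42 of 45 members were tested. Of them 16 rose and 8 fell at an adjusted p under 0.05 with a more than 2-fold difference. Of 11094 genes, 37% rose and 26.9% fell by the same rule. The 24 calls were 57.1% of the tested members, against 63.9% of all genes, so the share called is no result about the members. The median log2 fold change was 0.55 for the members and 0.27 for all genes. All libraries of one stage lay above all of the other for 33 members (22 higher and 11 lower in 2-cell embryos), as they did for 75.3% of all genes. The share of a member's coverage that lay 5′ of the transcript's midpoint had a median of 23.2% to 32.4% in siCtrl zygotes and 20.6% to 23.1% in siCtrl 2-cell embryos, and the part of this in the differences was not tested.

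**Figure D1:**
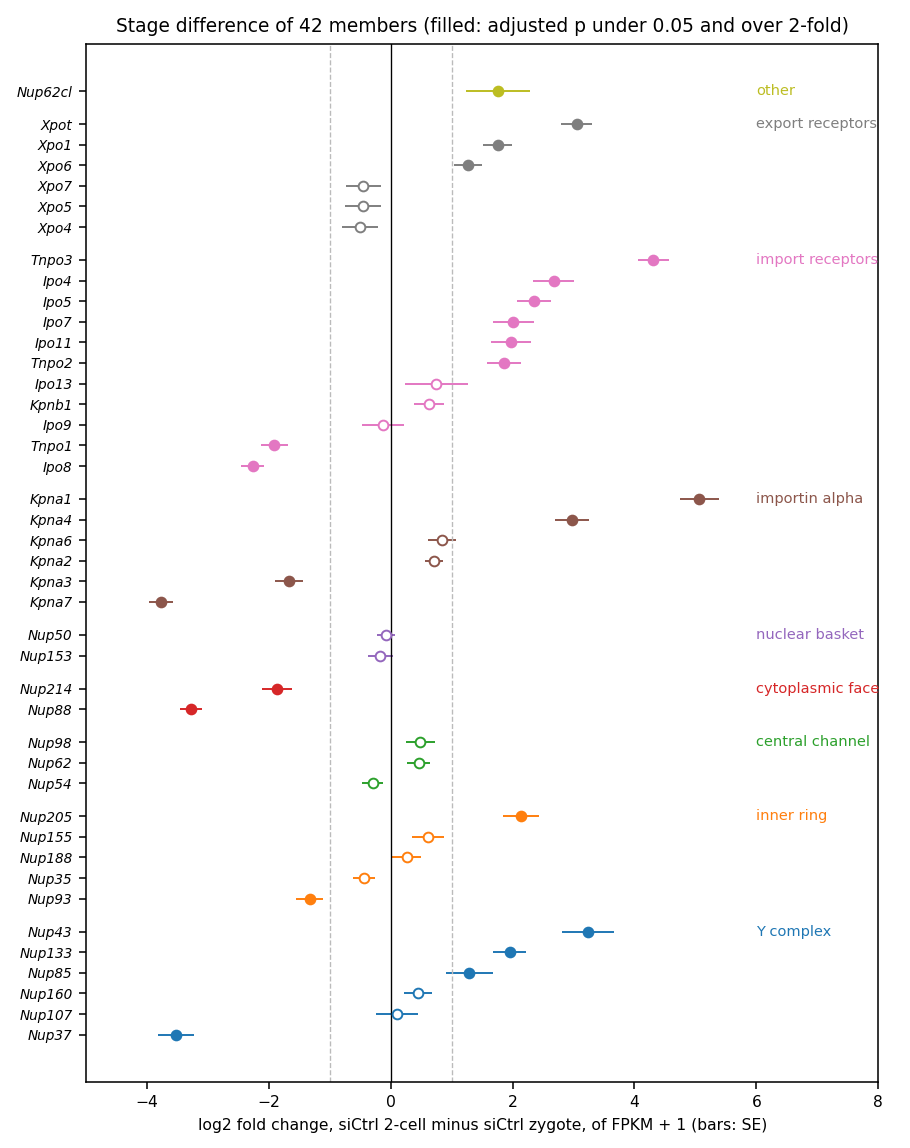
Log2 fold change of 42 tested members between siCtrl 2-cell embryos and siCtrl zygotes (x axis, log2 scale of FPKM + 1), grouped by role, with bars for the SE and filled points for calls. Importins α, import receptors and the Y complex each hold genes on both sides of 0, both cytoplasmic nucleoporins lie at or below -1.87, and the called export receptors lie at or above 1.27; Nup62cl rests on zygote values of 0, and its position gives no fold.

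Importin α adaptors differ in the signals they prefer. Kpna7, an oocyte and early-embryo form, was at 80.1, 63.5 and 63.2 FPKM in the 3 siCtrl zygote libraries and at 5.51, 4.61 and 4.76 in the 3 siCtrl 2-cell libraries. The groups were far apart, and the log2 fold change was -3.78 ± 0.19 (SE, limma, adjusted p = 4.58e-06). Copies on chromosomes 6 and 9 have 82.6% and 85.4% identity over 91.5% and 90.6% of the Kpna7 transcript. Kpna3 went from 95.9, 78.4 and 82.6 FPKM to 41.8, 22.7 and 32.3 (-1.67 ± 0.23, adjusted p = 0.00036). Both were thus lower in every siCtrl 2-cell library than in any siCtrl zygote library. Kpna3 did not stay apart in all conditions: it was at 120 FPKM in replicate 3 of 2-cell siRfx1, and at 50.9 and 54.7 in 2-cell siEtv5 against 54.2 to 100 in siEtv5 zygotes.

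Kpna1 was almost undetected in siCtrl zygotes, at 1.09, 0.176 and 0.181 FPKM, and reached 57.7, 39.8 and 64.5 in 2-cell embryos. With a log2 fold change of 5.07 ± 0.32 (limma, adjusted p = 7.65e-06) it had the largest difference of any member. Kpna4 rose from 0.348, 0.449 and 0.235 FPKM to 8.30, 10.8 and 13.96 (2.97 ± 0.27, adjusted p = 3.81e-05). Zygote values of both genes were near 0, so these fold changes depend on the pseudocount: with 0.1 in place of 1 they were 6.65 and 4.41.

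Kpna2, the adaptor with the highest level, was at 170, 134 and 128 FPKM in zygotes and 287, 254 and 299 in 2-cell embryos. The difference passed the test (0.71 ± 0.15, adjusted p = 0.0035) but was under 2-fold. Kpna2 has near-identical copies elsewhere in the genome, one of them on chromosome 17 with 99.9% identity over 96.6% of the transcript, so reads may be shared among them. Kpna6 was likewise higher by less than 2-fold (0.84 ± 0.23, adjusted p = 0.012), from 6.27 to 10.3 FPKM in zygotes to 15.8 to 19.9.

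The make-up of the importin α pool shows the exchange within each library. Kpna7 and Kpna3 together held 49.2% to 51.7% of the summed importin α FPKM in siCtrl zygotes and 7.78% to 11.4% in siCtrl 2-cell embryos. The share of Kpna1 and Kpna4 together was 0.148% to 0.403% in the zygotes and 14.4% to 18.1% at the 2-cell stage. Kpna2 made up 45.3% to 47.5% and then 68.8% to 72.4%. These shares restate the levels above, and since the 6 genes are set to 100% together, a higher share of 1 lowers the others.

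**Figure D2:**
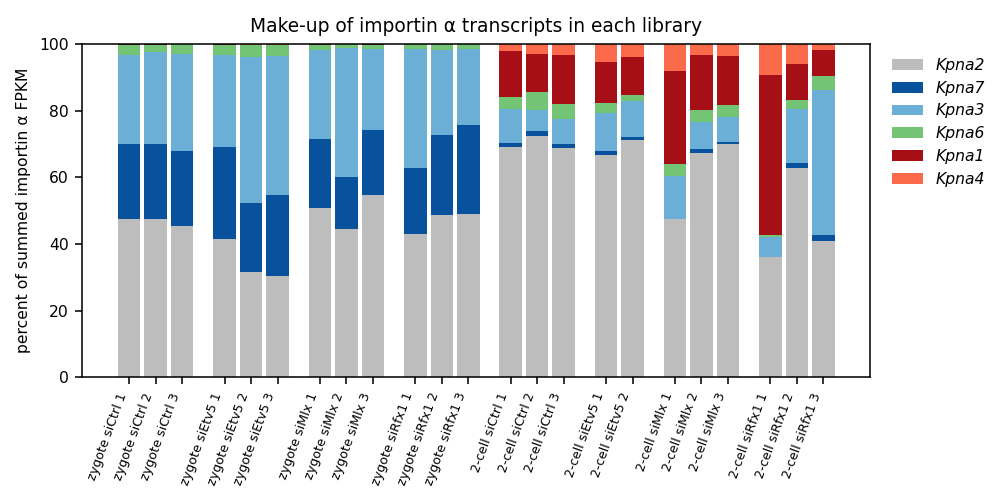
Share of each importin α gene (y axis, percent of their summed FPKM) in each of the 23 libraries, ordered by group. The blue part (Kpna7 and Kpna3) is 43.7% to 66.1% in the zygote libraries and 5.96% to 45.5% in the 2-cell libraries, where replicate 3 of siRfx1 has the 45.5%, and the red part (Kpna1 and Kpna4) is at least 9.55% in each 2-cell library.

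**Figure D3:**
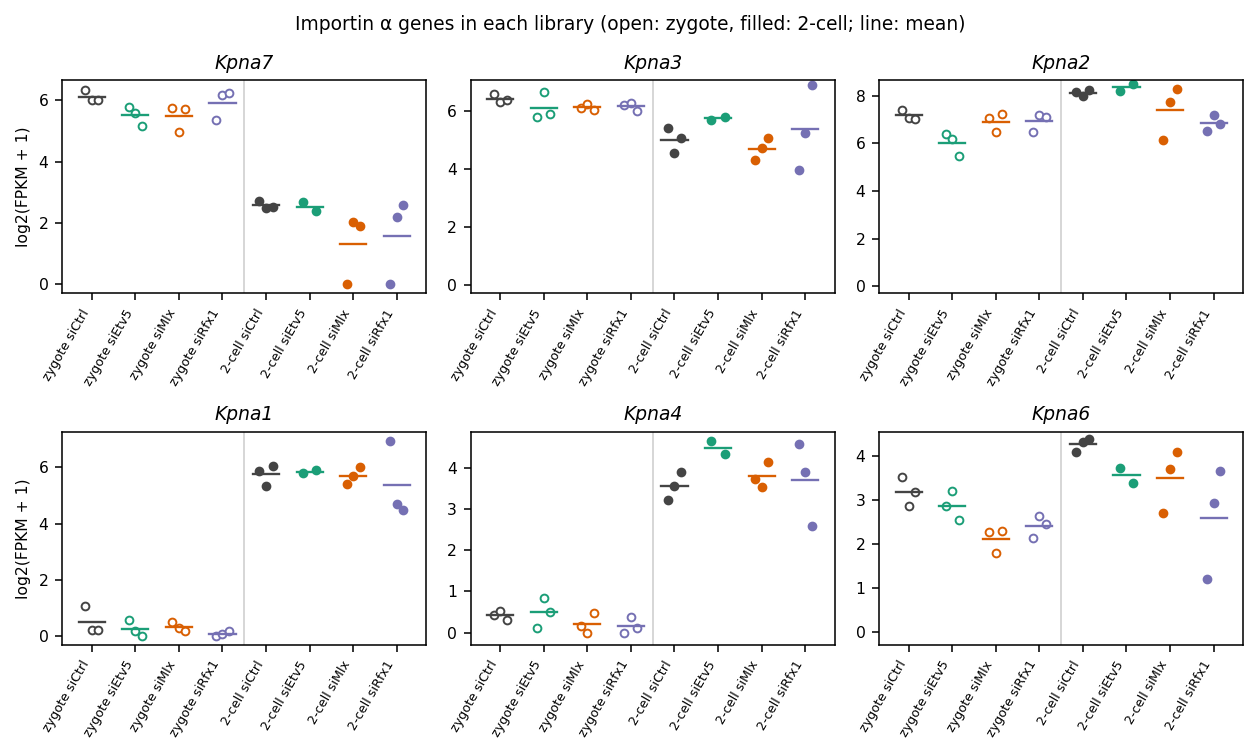
Levels of the 6 importin α genes (y axis, log2 of FPKM + 1) with 1 point per library and a line at the mean of each group; open points are zygotes and filled points 2-cell embryos. Kpna7 is lower and Kpna1 and Kpna4 are higher in every 2-cell library than in any zygote library, while Kpna7 is listed at 0 in 1 library each of 2-cell siMlx and 2-cell siRfx1.

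Of the import receptors, 6 rose and 2 fell among 11 tested, where 37% of all genes rose and 26.9% fell. Tnpo3, which imports splicing factors with serine- and arginine-rich domains, went from 1.72, 2.06 and 0.866 FPKM to 55.9, 57.3 and 55.9 in siCtrl, and the 2-cell libraries were closely alike. Its log2 fold change was 4.31 ± 0.25 (limma, adjusted p = 6.28e-06). Ipo5, an importer of ribosomal proteins and histones, was at 11.2, 5.50 and 8.12 FPKM and then at 46.3, 46.6 and 68.7 (2.35 ± 0.28, adjusted p = 0.00014). A copy on the X chromosome with 91.0% identity covers 85.4% of the Ipo5 transcript. Of the others that rose, Ipo4 had a log2 fold change of 2.67, Ipo7 of 2.01, Ipo11 of 1.97 and Tnpo2 of 1.85 (limma, adjusted p between 0.0002 and 0.00094). Over 12 alternatives Ipo4 ranged from 2.47 to 3.98, Ipo7 from 1.76 to 3.26 and Ipo11 from 1.70 to 2.76.

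Ipo8, which shares cargo with Ipo7, was the highest import receptor of siCtrl zygotes at 90.7, 76.9 and 80.8 FPKM and stood at 19.8, 16 and 23.8 in 2-cell embryos (-2.27 ± 0.19, adjusted p = 2.5e-05). Ipo7 itself was at most 0.643 FPKM in the zygotes and reached 3.34 to 8.12, so the closely related pair moved in opposite directions. Tnpo1, the receptor for cargo with a PY signal, fell from 26.8, 20.7 and 25.6 FPKM to 8.21, 5.85 and 6.78 (-1.91 ± 0.21, adjusted p = 0.00011), whereas Tnpo2, its paralogue, rose from 1.83 to 3.53 to 12.6 to 18.0. A copy on chromosome 16 has 97.5% identity over 66.2% of the Tnpo1 transcript. Kpnb1, the common partner of the importins α, was at 20.3, 13.3 and 13.8 FPKM in zygotes and 30.6, 23 and 35.6 at the 2-cell stage. It passed the adjusted threshold with 0.63 ± 0.24 (adjusted p = 0.046) but stayed under 2-fold. Ipo9 (-0.12, adjusted p = 0.76) and Ipo13 (0.75, adjusted p = 0.22) did not pass.

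Export receptors were either higher or not called. Xpo1, the exporter of proteins with leucine-rich signals, rose from 7.14, 6.44 and 5.70 FPKM to 31.8, 21.5 and 33.4 (1.75 ± 0.23, adjusted p = 0.00027). Xpot, the exporter of tRNA, was at 0.172, 0.0707 and 0 FPKM in siCtrl zygotes and at 10.02, 7.59 and 9.14 in 2-cell embryos (3.05 ± 0.25, adjusted p = 2.29e-05). Its zygote values were near 0, and over 12 alternatives the log2 fold change ranged from 2.82 to 5.56. A copy on chromosome 8 has 95.5% identity over 83.8% of Xpot. Xpo6, the exporter of actin, was the highest of the class in siCtrl zygotes at 7.03 to 9.59 FPKM and reached 19.1 to 28.8 (1.27 ± 0.24, adjusted p = 0.0016). Xpo4, Xpo5 and Xpo7 had log2 fold changes of -0.51, -0.46 and -0.45, with adjusted p between 0.155 and 0.195.

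The Y complex is assembled from all of its subunits, whose mRNA levels differed in direction between the stages. Nup37 was the highest of its 6 members in siCtrl zygotes, at 42.8, 37.3 and 33.5 FPKM, and fell to 2.93, 4.52 and 1.71 (-3.53 ± 0.29, adjusted p = 2.3e-05). Nup43 was at 7.09, 1.28 and 3.83 FPKM in zygotes and became the highest of the 6 at 40.3, 54.7 and 50.8 (3.24 ± 0.43, adjusted p = 0.00028). Nup37 accordingly held 65.1% to 76.0% of the FPKM of the 6 genes in zygotes and 2.07% to 5.26% in 2-cell embryos, while the share of Nup43 went from 2.61% to 11.3% to 61.7% to 65.9%. Nup133 (1.95, limma, adjusted p = 0.00033) and Nup85 (1.29, adjusted p = 0.017) also rose, from levels below 1 FPKM. Over the alternatives these log2 fold changes ranged from 1.75 to 4.02 and from 1.15 to 3.30. Nup85 lost its call when siCtrl zygote replicate 1 or 2 was left out (adjusted p = 0.066 and 0.068). Nup107 (0.11) and Nup160 (0.45), the other members of the complex, did not pass, with adjusted p of 0.80 and 0.11. Of the subunits outside the symbols used here, Sec13 had a mean of 50.2 rescaled FPKM in siCtrl zygotes and fell to 16.4 (-1.56, adjusted p = 0.0001). Seh1l had 0.90 (adjusted p = 0.019), under 2-fold. Ahctf1, also counted with this complex, rose from 18.1 to 63.5 rescaled FPKM (1.74, limma, adjusted p = 9.7e-05).

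The members at the cytoplasmic face were Nup214 and Nup88, which bind each other and anchor export factors. Nup88 was at 61.1, 60.3 and 71.7 FPKM in siCtrl zygotes and 7.25, 6.56 and 6.77 in 2-cell embryos (-3.29 ± 0.18, adjusted p = 5.29e-06). All of its zygote signal in siCtrl was assigned to 1 annotated transcript and all of its 2-cell signal to the other, and these have 2439 and 2450 bases. Outside siCtrl the assignment did not follow the stage in every library. In zygote siEtv5 replicate 3 all 57.9 FPKM went to the longer transcript. In 2-cell siMlx replicate 1 (4.78 FPKM) and 2-cell siRfx1 replicate 3 (2.46) all went to the shorter. The part 5′ of the midpoint held 89.3% to 94.0% of the Nup88 coverage in siCtrl zygotes and 65.3% to 94.8% in siCtrl 2-cell embryos, unlike most members, and the part of this in the difference was not tested. Nup214 went from 46.1, 42.7 and 51.6 FPKM to 12, 20.4 and 12.4 (-1.87 ± 0.24, adjusted p = 0.00024). Both genes were lower in every siCtrl 2-cell library than in any siCtrl zygote library, while Ranbp2, the filament nucleoporin of the same face outside these symbols, rose (3.29).

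No member of the central channel or the nuclear basket was called. In the central channel, Nup62, the highest nucleoporin among the members, was at 134, 137 and 151 FPKM in siCtrl zygotes and 221, 289 and 192 in 2-cell embryos, and its difference of 0.45 ± 0.18 missed the threshold (adjusted p = 0.054). Nup98 (0.49) and Nup54 (-0.29) did not pass either, with adjusted p of 0.10 and 0.16. In the nuclear basket, Nup50 was at 82.3 to 95.2 FPKM in zygotes and 96.6 to 104 in 2-cell embryos (-0.08 ± 0.15 after rescaling, adjusted p = 0.62), and Nup153 had -0.17 (adjusted p = 0.48).

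In the inner ring, which links the scaffold to the membrane, Nup205 rose from 0.192, 0.217 and 0 FPKM to 3.30, 4.27 and 6.25 (2.14 ± 0.30, limma, adjusted p = 0.00034). Over 12 alternatives this log2 fold change ranged from 1.94 to 4.24. Nup93 fell from 13, 9.80 and 12.3 FPKM to 5.38, 4.98 and 4.26 (-1.33 ± 0.22, limma, adjusted p = 0.00094). Nup35, the highest of the class, was at 46.7 to 63.3 FPKM and then 45.2 to 53.4 and missed the threshold (-0.44, adjusted p = 0.058). A copy on chromosome 7 with 99.6% identity covers 65.3% of Nup35. Nup155 (0.61, adjusted p = 0.064) and Nup188 (0.26, adjusted p = 0.35) did not pass. Nup62cl was listed at 0 in all 12 zygote libraries and at 0.940, 7.69 and 1.85 FPKM in the siCtrl 2-cell libraries; it passed the test (adjusted p = 0.016), and no fold is given against values of 0. Nup210, Nup210l and Nup62-il4i1 were below the filter, at most 0.813, 1.06 and 1.33 FPKM in siCtrl, and Nup62-il4i1 shares 86.0% of its exonic bases with Il4i1.

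Other genes of the transport machinery were examined as lists beside the members, and the counts stand against 37% of all genes that rose and 26.9% that fell. Of the Ran cycle and other carriers, 6 of 10 tested rose and none fell, with Rangap1, the activator of the Ran GTPase, at 4.39, Ranbp2, a filament nucleoporin, at 3.29 and Snupn, the snurportin adaptor, at 2.84 on the log2 scale. In the list for mRNA export, 8 of 18 rose and 4 fell: the adaptor Alyref (4.11) and the helicase Ddx39 (3.67) rose, and the helicase Ddx19a fell by 3.67. Of 11 other pore genes 2 rose and 4 fell, among them Tpr (2.03) and Ahctf1 (1.74), which rose, and Sec13 (-1.56), which fell. Lamina and envelope genes gave 4 higher and 1 lower of 9, led by Lemd3 (4.65), Sun1 (3.00) and Lbr (2.48). The lists' median log2 fold changes were 1.58, 0.83, 0.49 and 0.54, against 0.27 for all genes.

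The same stage comparison within siEtv5, siMlx and siRfx1 used other libraries. It called 24 of 41 members in siEtv5 (58.5%; 60.9% of all genes), 23 of 41 in siMlx (56.1%; 64.5%) and 16 of 38 in siRfx1 (42.1%; 48.4%). In siEtv5, 18 members rose and 6 fell, beside 37.9% and 23% of all genes. In siMlx these were 16 and 7, beside 35.4% and 29.1%, and in siRfx1 10 and 6, beside 18.7% and 29.7%. Of the 38 members tested in all 4 stage comparisons, 14 (36.8%) were called the same way in each, as were 32.2% of all genes tested in each. The 9 that rose in each were 23.7% (16.4% of all genes) and the 5 that fell 13.2% (15.8%). Higher in all 4 were the receptors Kpna1, Kpna4, Tnpo3, Ipo4, Ipo5, Ipo7, Xpo1 and Xpot and the scaffold nucleoporin Nup133. In siRfx1, whose 2-cell libraries were shallow, the Ipo4 call was lost in 5 of 12 alternatives. Nup133 lost its call there in 2 of 13 and Xpo1 in 1 of 13. Lower in all 4 were Kpna7, Ipo8, Nup37, Nup88 and Nup214. No member was called in opposite directions (1.3% of all genes were).

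Sizes varied between conditions for the genes called in each. Kpna1 had log2 fold changes of 5.42 in siEtv5, 5.13 in siMlx and 5.14 in siRfx1, and Tnpo3 of 4.70, 4.73 and 6.12. For Kpna4 they were 3.81, 3.38 and 3.41, and for Xpo1 2.97, 3.02 and 2.52. Nup88 had -4.49 in siEtv5, with 1 of 2 2-cell libraries at 0.0967 FPKM, and -4.42 in siMlx, so that these sizes depend on the pseudocount. It was listed at 0 in 2 of 3 2-cell siRfx1 libraries, so no fold is given for that condition. Kpna7 had -3.22 in siEtv5, -4.52 in siMlx and -4.53 in siRfx1. It was listed at 0 in 1 library of each of the last 2 2-cell groups, so those 2 sizes depend on the pseudocount. Nup37 had -2.51 in siEtv5 and -4.32 in siMlx, and it was listed at 0 in all 3 libraries of 2-cell siRfx1, so no fold is given there. Among the first 10 of each comparison were also Nup43 (3.93) and Xpot (3.48) in siEtv5, Ipo5 (3.55 in siEtv5 and 3.48 in siMlx), Ipo4 (2.99) and Ipo7 (2.92) in siMlx, and Ipo7 (3.79), Nup133 (2.82) and Ipo4 (2.58) in siRfx1. The siEtv5 count fell to 15 without 2-cell siEtv5 replicate 2.

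Kpna2 was tested in each condition. It had 0.71 in siCtrl and 2.07 in siEtv5 (adjusted p = 0.0021), where zygotes were at 81.9, 72.2 and 43.1 FPKM and 2-cell embryos at 294 and 359. In siMlx it had 0.09 (adjusted p = 0.87) and in siRfx1 -0.33 (adjusted p = 0.38). The difference between siEtv5 and siCtrl in this change, 1.18 ± 0.34, did not pass (limma interaction, adjusted p = 0.13), nor did those of siMlx (-0.62 ± 0.50, adjusted p = 0.59) and siRfx1 (-0.77 ± 0.33, adjusted p = 0.15). Kpnb1 had 1.71, 1.58 and 0.90 in the 3 conditions, and its interactions did not pass (adjusted p between 0.29 and 0.63).

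Each knockdown was then compared with siCtrl of the same stage. The study examined whether these factors are needed for activation of the embryonic genome, with ETV5 as a negative control. All comparisons of a stage share the same siCtrl libraries. In zygotes, no member was called after siEtv5 (32 tested; 0% of all genes), siMlx (34 tested; 2.15%) or siRfx1 (32 tested; 0.0557%). At an unadjusted p under 0.05 by limma there were 6, 14 and 6 members, against 12.4%, 24.7% and 14.6% of all genes. In 2-cell embryos the calls were none after siEtv5 (42 tested; 0.251%), none after siMlx (40 tested; 0.00945%) and 1 of 40 after siRfx1 (2.5%; 3.56%). At an unadjusted p under 0.05 there were 4, 2 and 10 members, against 15.5%, 18.7% and 23.2%. No gene of the 4 other transport lists was called in these 6 comparisons.

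**Figure D4:**
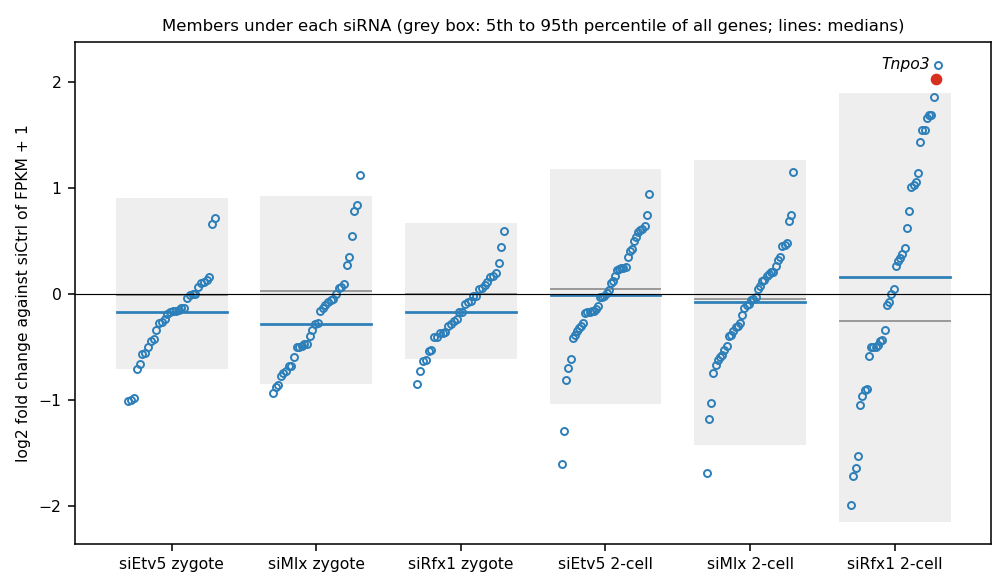
Log2 fold change of each tested member against siCtrl of the same stage (y axis, log2 scale of FPKM + 1) for 6 knockdown comparisons; grey boxes span the 5th to 95th percentile of all genes tested, and lines mark the medians of members (blue) and all genes (grey). Tnpo3 (red) in 2-cell siRfx1 is the 1 called member, and the 3 zygote medians of the members lie at -0.17, -0.28 and -0.17, below those of all genes. These 3 comparisons share the same siCtrl libraries.

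In the zygote comparisons the members leaned downwards without passing the test gene by gene. Their median log2 fold changes were -0.17 (siEtv5), -0.28 (siMlx) and -0.17 (siRfx1), while those of all genes were -0.01, 0.03 and 0.00. The 3 comparisons share the same siCtrl zygotes, so they are not separate observations. The members' summed FPKM was 964 to 1094 in siCtrl zygotes. It was 662 to 936 in siEtv5, 632 to 757 in siMlx and 710 to 954 in siRfx1. These sums are as deposited, before rescaling. Rescaling divided siCtrl zygotes by 1.04 to 1.17 and knockdown zygotes by 0.817 to 1.05, so the gap is narrower on the rescaled values. After siMlx, 24 of 34 tested members had a negative value (70.6%; 48.3% of all genes), and 14 lay below every siCtrl library, as did 17.3% of all genes. After siEtv5 and siRfx1, 8 and 9 of 32 did so, as did 9.64% and 12% of all genes. The zygote libraries also differed in coverage: the members' median share 5′ of the midpoint was 23.2% to 32.4% in siCtrl, 31.3% to 41.3% in siEtv5, 45.9% to 49.2% in siMlx and 36.3% to 44.2% in siRfx1. Stage markers moved after siMlx as well: the oocyte genes Bmp15 (1.19) and Zp1 (1.42) and the 2-cell genes Usp17la (1.86) and Zscan4c (1.28) were called higher on the log2 scale in siMlx zygotes (adjusted p between 0.041 and 0.049). The part of the shared siCtrl libraries, the coverage or the markers in the lower values was not tested.

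Nup62 came nearest to a call in siMlx zygotes. It was at 62.3, 44.5 and 66.9 FPKM, below the 134 to 151 of siCtrl zygotes, with a log2 fold change of -0.94 ± 0.20 (limma, adjusted p = 0.048), and the fold was under 2. With no fold minimum it would be the 1 member called (2.61% of all genes). Xpo1 was at 2.49, 2.42 and 2.10 FPKM against 5.70 to 7.14 (-0.87 ± 0.21, adjusted p = 0.0599), and Tnpo1 at 9.36, 8.62 and 12.5 against 20.7 to 26.8 (-0.86 ± 0.21, adjusted p = 0.062). Each of the 3 genes was lower in every siMlx library. Without rescaling, 6 members were called in this comparison, all lower. The factors were 1.10 to 1.17 for siCtrl and 0.817 to 0.946 for siMlx libraries, so leaving them out lowers siMlx values against siCtrl. The share of all genes called in that fit is not given here, so the 6 are no result about the members.

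After siEtv5, the zygote genes with the lowest p were Kpna2 (-0.98 ± 0.27, adjusted p = 0.32), Nup160 (-0.998 ± 0.29, adjusted p = 0.33) and Tnpo1 (-1.01 ± 0.35, adjusted p = 0.36). Kpna2 was at 43.1 to 81.9 FPKM against 128 to 170 in siCtrl, and Nup160 at 2.03 to 4.11 against 6.96 to 7.42, so neither overlapped. After siRfx1 they were Kpnb1 (-0.72 ± 0.19), Xpo1 (-0.85 ± 0.23) and Nup153 (-0.63 ± 0.20), all with adjusted p between 0.23 and 0.26. Kpnb1 stood at 7.44, 8.94 and 7.68 FPKM in siRfx1 zygotes against 13.3 to 20.3 in siCtrl.

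In siEtv5 2-cell embryos the genes with the lowest p were importins α: Kpna4 (0.94 ± 0.31, adjusted p = 0.22), Kpna3 (0.74 ± 0.29, adjusted p = 0.28) and Kpna6 (-0.70 ± 0.27, adjusted p = 0.29). Kpna4 was at 24.1 and 19.3 FPKM in the 2 siEtv5 libraries and 8.30 to 13.96 in siCtrl. In the libraries labelled 2-cell siMlx they were Nup62 (-0.75 ± 0.28, adjusted p = 0.21), Ipo7 (1.15 ± 0.43, adjusted p = 0.22) and Nup35 (-1.69 ± 0.81, adjusted p = 0.30). Nup35 was at 18.4, 34.6 and 2.12 FPKM there and at 45.2 to 53.4 in siCtrl.

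Tnpo3 (chr6:29490827-29559607, minus strand, mm9) was the 1 member called after siRfx1 in 2-cell embryos. It was at 111, 129 and 203 FPKM in siRfx1 and at 55.9, 57.3 and 55.9 in siCtrl, and the log2 fold change after rescaling was 2.02 ± 0.33 (limma, adjusted p = 0.027). The siEtv5 (62.3 and 63.6) and siMlx (35.7, 58.2 and 72.1) 2-cell libraries stayed near siCtrl. In the siRfx1 libraries 0% to 1.08% of the Tnpo3 coverage lay 5′ of the midpoint, against 11% to 14.4% in siCtrl, and the depth was 119 to 174 against 727 to 967 megabases. Of the oocyte and early embryo markers, Gdf9, Mos and Zar1 were called higher in the same comparison. Their log2 fold changes were 2.33, 3.18 and 3.69 (limma, adjusted p of 0.014, 0.038 and 0.0099). The others tested lay on both sides of siCtrl without a call, from -1.54 for Zp1 to 2.28 for Ooep. The sum of this list was 2727 to 3322 FPKM, against 2936 to 4415 in siCtrl. The 2-cell markers summed to 236 to 371 FPKM against 608 to 866. The part of any of these in the higher value was not tested. The call was lost without any 1 of the 3 siCtrl libraries (limma, adjusted p = 0.127 to 0.138), and with siEtv5 as the control, where no gene at all was called. Within the 250 bases before Tnpo3, the ETS letters stood at -242 and the X-box core at -49, both on the opposite strand.

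The stage difference itself was compared between each knockdown and siCtrl as an interaction. No member passed for siEtv5 (42 tested; 0.316% of all genes) or siMlx (41 tested; 1.16%). At an unadjusted p under 0.05 by limma there were 6 and 8 members (18.1% and 16.1% of all genes). The lowest p were those of Kpna2, Ipo13 (-2.21, adjusted p = 0.18) and Nup62-il4i1 (-0.99, adjusted p = 0.21) for siEtv5, and of Xpo1 (1.31, adjusted p = 0.0996), Nup62-il4i1 (-1.05, adjusted p = 0.18) and Ipo5 (1.17, adjusted p = 0.23) for siMlx.

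For siRfx1, 4 of 39 members passed (10.3%; 10% of all genes), and 10 did so at an unadjusted p under 0.05 (27.1%). The stage difference of Tnpo3 was larger by 2.18 ± 0.47 on the log2 scale than in siCtrl (limma interaction, adjusted p = 0.017) and that of Ipo7 by 2.16 ± 0.55 (adjusted p = 0.032). Ipo7 was at 27.9, 11.9 and 14.3 FPKM in 2-cell siRfx1 against 5.02, 3.34 and 8.12 in siCtrl. Nup88 and Nup37 passed as well (adjusted p = 0.031 and 0.021), but no size is given for them. Nup88 was listed at 0, 0 and 2.46 FPKM and Nup37 at 0 in all 3 libraries of 2-cell siRfx1, where 6 to 8 of the 45 members were at 0 against 0 to 1 in siCtrl 2-cell libraries. A listed 0 in these shallow libraries gives no fold, and the part of depth in these 4 results was not tested. Over 19 alternatives the call was lost in 12 for Ipo7, 10 for Nup88, 5 for Nup37 and 2 for Tnpo3. The count of 4 was 0 without siCtrl zygote replicate 2 and 8 without 2-cell siRfx1 replicate 1 or 3. Ranbp2 was the 1 gene of the other lists that passed (1.89, adjusted p = 0.0497).

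**Figure D5:**
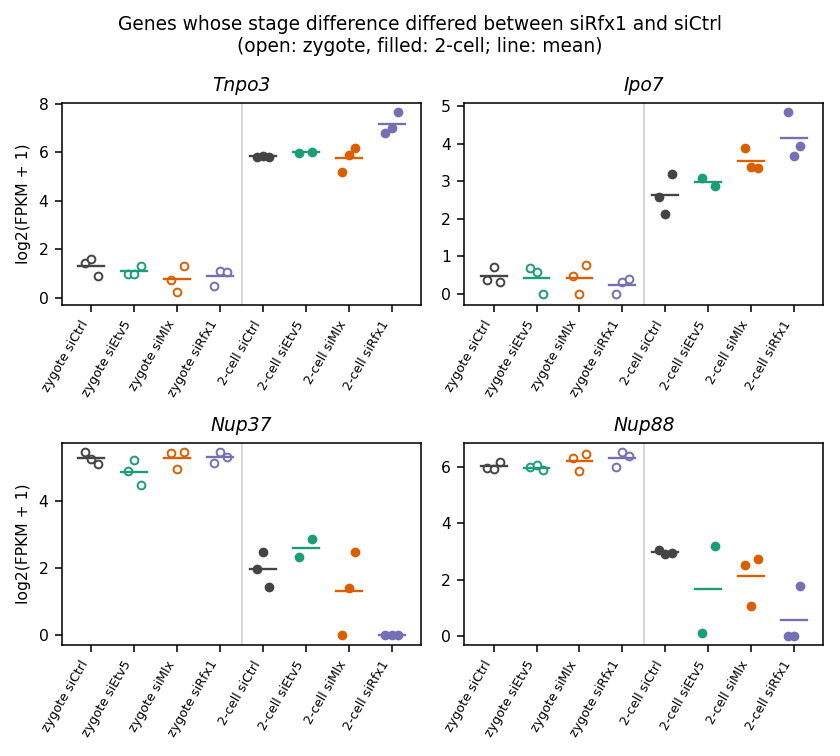
Levels of Tnpo3, Ipo7, Nup37 and Nup88 (y axis, log2 of FPKM + 1) in all 8 groups, with 1 point per library and a line at each mean; open points are zygotes and filled points 2-cell embryos. In 2-cell siRfx1 all 3 Tnpo3 points lie above the siCtrl points, Nup37 is at 0 in all 3 libraries and Nup88 in 2, and the zygote points of siRfx1 and siCtrl lie close together.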

How the data were processed

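Embryo RNA had been reverse transcribed with oligo-dT, amplified and sheared, and libraries were made with a kit that does not mark strand and carries no molecular identifiers. Per the labels and the submitters' processing notes, the authors aligned reads to mm9 with STAR 2.5.2b and estimated RefSeq transcripts with StringTie (1.3.4 in the notes, 1.3.3b in the file headers). The deposited values used here are FPKM and per-base coverage of each transcript; per the file headers no strand option was set. FPKM of the transcripts of a gene was summed, which left 22619 named genes; 976 of 29306 transcripts without a gene name were left out. The authors' read counts were not used here.

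Within a comparison, libraries were scaled to each other with median ratios, taken from genes that reached 1 FPKM in every library. After this, genes whose mean was 1 FPKM or higher entered a fit of log2(FPKM + 1) in limma 3.58.1 (trended prior, R 4.3.3), only on the groups compared, with Benjamini-Hochberg adjustment over all genes tested. A call needed an adjusted p under 0.05 and more than 2-fold, except in interactions, which needed the adjusted p alone. Fold changes on this scale understate those of low genes. FPKM printed per library are as deposited; SE and p come from the rescaled values. The analysis was tested on simulated data.

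Named genes were Kpna2, Kpna7, Kpnb1 and Xpo1, every called member (at most 30 for siCtrl stages and 10 for others, by size), the 3 lowest p where none was called, the highest gene of each class, and up to 3 called genes per other list. Members outside this rule are named so that each tested member is accounted for, and were picked after their values were seen. The members and lists were chosen with earlier results of these data known. Depth was taken as coverage per FPKM; intervals from counts were not computed. Coverage 5′ of the midpoint treats each exon as even. Copies were sought in mm9 with at least 80% identity over at least 20% of a transcript. Beyond those given above, they were found for Kpnb1 (84.7% identity over 24.9%), Nup54 (97.7% over 87.2%) and Nup93 (100% over 44.2%). The Nup93 copy lay on a sequence outside the named chromosomes, and Kpna7 had a further copy on chromosome 8 (80.1% over 60.3%). Intron ends fitted the build (98.05% of 1078 member introns were GT-AG). Alternatives were another pseudocount, other filters, no rescaling, all 8 groups together, a replicate block, array weights, single libraries left out, no fold minimum and siEtv5 as the control.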

Additional observations from a re-analysis of the deposited data

Results flagged for a closer look

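In siRfx1 the stage difference of 4 members differed from that in siCtrl by the interaction test of limma: by 2.18 for Tnpo3, 2.16 for Ipo7, -2.48 for Nup88 and -1.90 for Nup37, each on the scale of log2(FPKM + 1) as siRfx1 minus siCtrl. The share of members was 10.3% and that of all genes 10%. The values of Nup88 and Nup37 rest on libraries listed at 0 and ranged from -2.19 to -4.60 and from -1.63 to -4.71 over 19 alternatives, so they give no size. Leaving out single libraries moved the count of 4 members between 0 and 8. It was 0 without zygote siCtrl replicate 2, 1 without zygote siCtrl replicate 3 or zygote siRfx1 replicate 2 or 3, and 2 without zygote siCtrl replicate 1, zygote siRfx1 replicate 1 or 2-cell siCtrl replicate 1 or 2. It was 7 without 2-cell siRfx1 replicate 2 and 8 without replicate 1 or 3 of that group. All 4 rest on 2-cell siRfx1 libraries of 119 to 174 megabases, against 404 to 967 in the other 2-cell groups. Groups of 3 or fewer libraries were not tested for single outlying samples.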

How the results depend on the processing

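Depth limits the 2-cell siRfx1 group most, where a listed 0 gives no fold, and low zygote values make folds depend on the pseudocount. Of 198 recomputed counts of called members 166 stayed within 1.5 times the reported one. Counts for siCtrl, siMlx and siRfx1 stages did so throughout. For siMlx zygotes the count of 0 became 6 without rescaling, 1 with array weights and 1 (Nup62) with no fold minimum. For 2-cell siMlx it became 2 with array weights. For 2-cell siRfx1 the count of 1 became 2 with a pseudocount of 0.1, 3 without rescaling, 13 with all 8 groups in a single fit, 0 with the replicate block and 0 with siEtv5 as the control. The siMlx interaction count of 0 became 5 with array weights, and that of siRfx1, 4, became 2 with a pseudocount of 0.1 and 1 with array weights. The array weights did not converge in 4 comparisons, all with siMlx. For most of these alternative fits, here and above, the share of all genes called is not given. Such counts are no result about the members.

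With single libraries left out, counts ranged from 23 to 24 (siCtrl stages), 15 to 27 (siEtv5), 19 to 22 (siMlx) and 11 to 20 (siRfx1), from 0 to 1 for siEtv5 zygotes, 0 to 4 for 2-cell siRfx1, 0 to 2 for the siEtv5 interaction and 0 to 8 for that of siRfx1. They stayed at 0 in the other 4 knockdown comparisons and the siMlx interaction. Where 1 siEtv5 2-cell library was left, it is assumed to vary like the other group. The siEtv5 zygote call was without siEtv5 replicate 2, and the siEtv5 interaction calls were 2 without zygote siEtv5 replicate 2 and 1 without 2-cell siEtv5 replicate 2. For 2-cell siRfx1 the count was 0 without siCtrl replicate 1, 2 or 3, and it was 4 without siRfx1 replicate 1 and 2 without siRfx1 replicate 3. Of 1129 recomputed values of named genes 1076 kept direction and call, 45 lost the call, 7 gained it and 1 reversed: Nup50 between the siCtrl stages, at 0.17 without rescaling. The replicate block changed no other count by more than 1.5 times; same-numbered libraries did not deviate together (r from -0.379 to 0.187 in zygotes and -0.00861 to 0.139 in 2-cell embryos), so the numbers were not taken as pairs. Beyond these, the cause of a change was not tested.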
